A study of Mus musculus with 384 samples.

Results

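Krt6a-positive luminal cells were compared with Krt6a-negative luminal cells of the mouse mammary gland 1 week after luminal ablation. Both classes came from the same sort gate of the same plate, and both were chosen by their own Krt6a reads. Levels are given in CPM, the reads of a gene scaled to a common total of gene reads, and a cell was positive at 50 CPM of Krt6a or more and negative under 10 CPM. Of 76 kept ablated luminal cells, 24 were positive and 46 negative, and 6 cells lay between and belonged to neither class. These 70 cells stand among 319 kept single cells from 384 wells.

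RNA of single sorted cells had been sequenced with Smart-seq2, a full-length method that counts reads without molecular identifiers. All wells, those called wild type (WT) included, carry one strain label, K8rtta/TetO-DTA/K5CreER/Rosa-Tomato on a mixed background. In this design doxycycline acts on a transactivator (K8rtta) that drives the A chain of diphtheria toxin (TetO-DTA) in cells using the keratin 8 promoter, and K5CreER switches on the Tomato label in cells using the keratin 5 promoter. The labels name no tamoxifen, age or animal, and record 0.2 mg doxycycline by intraductal injection for the ablated groups only. Tomato-labelled cells were sorted by CD29 and EpCAM after removal of cells bearing CD45, CD31 or CD140a. The 91 ablated luminal wells of the labels gave the cells described here, and 50 WT luminal, 50 WT basal, 91 ablated basal and 92 ablated hybrid wells served for reference. Ablation, injection, doxycycline and animal cannot be told apart wherever an ablated group is set beside WT cells.

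Krt6a encodes a type II keratin that pairs with the type I keratins Krt16 and Krt17. It is best known from skin, where it appears in keratinocytes at wound edges and in the companion layer of the hair follicle. In the mammary gland it has been used to mark body cells of the terminal end buds and scattered luminal cells, and keratins 8 and 18 form the standing filament network of the luminal layer. Luminal cells fall into hormone-sensing cells, which carry estrogen and progesterone receptors, and hormone-receptor-low progenitors, which give rise to milk-secreting cells.

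No animal is named, so each class counts as cells of 1 sample, no test was run, and whether a difference exceeds the variation among animals is unknown. The level of a class pools the reads of all its cells before scaling to CPM, and its exact Poisson 95% interval reached at most 4.95% on either side for the named genes at 50 CPM or more. These intervals cover counting error only and leave out the spread between cells, which was far wider. Log2 ratios set positive over negative cells, with 10 CPM added to both levels. Genes were called higher or lower from a 2-fold difference on that scale. Detection in a cell required at least 5 reads once the cell had been thinned to 100000. Shares of cells carry exact Clopper-Pearson 95% intervals.

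Krt6a (ENSMUSG00000058354.7, GRCm38 chromosome 15, 101689910 to 101694307, minus strand) lies next to its close copy Krt6b (ENSMUSG00000023041.7, chromosome 15, 101676023 to 101680287). Their coding sequences are 97.8% identical over the 1426 bases of the first 8 coding exons, with 32 differences and 1 identical stretch of 280 bases. The 60 coding bases of exon 4 that hold the most differences, 10 of them, are shown because they are where reads tell both genes apart. Capitals mark the bases that differ between Krt6a (chr15:101692484-101692543) and Krt6b (chr15:101678303-101678362), both on the minus strand and written 5′ to 3′ from GENCODE M21.
Krt6a: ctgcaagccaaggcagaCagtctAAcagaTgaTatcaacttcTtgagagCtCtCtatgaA
Krt6b: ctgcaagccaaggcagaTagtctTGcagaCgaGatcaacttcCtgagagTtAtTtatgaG
Krt6b held 1 read in all kept ablated luminal cells together and 1 read in all hybrid cells, so the counted keratin 6 signal was Krt6a. The sources used here do not say how reads from the shared stretches were counted.

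The values that chose the cells are given as a description. Krt6a ran from 64.3 to 3011 CPM in the 24 positive cells, with a median of 280.4 CPM. The 3 cells just inside the upper limit had 64.3, 66.8 and 79.2 CPM. The 6 cells between the limits had 10.7, 11.2, 14.9, 25.3, 35.4 and 39.7 CPM, and the highest negative cells had 8.18, 7.40 and 6.90 CPM. Levels among positive cells were spread widely, with 6 cells under 100 CPM, 11 from 100 to 1000 CPM and 7 above, and the top 2 cells held 41.7% of the class's Krt6a reads. Of the negative cells, 20 had 0 Krt6a reads and 26 had at least 1. Positive cells made up 31.6% (21.4 to 43.3) of kept ablated luminal cells.

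Such cells were almost absent outside the ablated luminal gate. Positive cells numbered 1 of 43 in WT luminal cells, or 2.33% (0.0589 to 12.3), and 1 of 85 in hybrid cells, or 1.18% (0.0298 to 6.38). None was found among 44 WT basal or 71 ablated basal cells, which allows shares of up to 6.82% and 4.23% when 0 is taken to allow 3 cells. Hybrid cells held Krt6a reads in 24 cells, 23 of them under 10 CPM, so the hybrid gate could not be divided in the same way. Low Krt6a reads followed plate lines in part. On line I, which also held luminal wells, 4 of 4 kept ablated basal cells had Krt6a reads, at most 3, against 2 of 67 on the other lines. Hybrid cells had reads in 7 of 17 on line M, also shared with luminal wells and the line of the 1 positive hybrid cell, and in 8 of 24, 4 of 23 and 5 of 21 on lines N, O and P. Whether low reads in negative cells came from their own RNA was not tested. Over all kept cells of a group, Krt6a stood at 238 CPM in ablated luminal, 3.17 in WT luminal, 2.38 in hybrid, 0.187 in ablated basal and 0.0217 in WT basal cells. The 5 negative control wells held 1 Krt6a read between them.

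**Figure D1:**
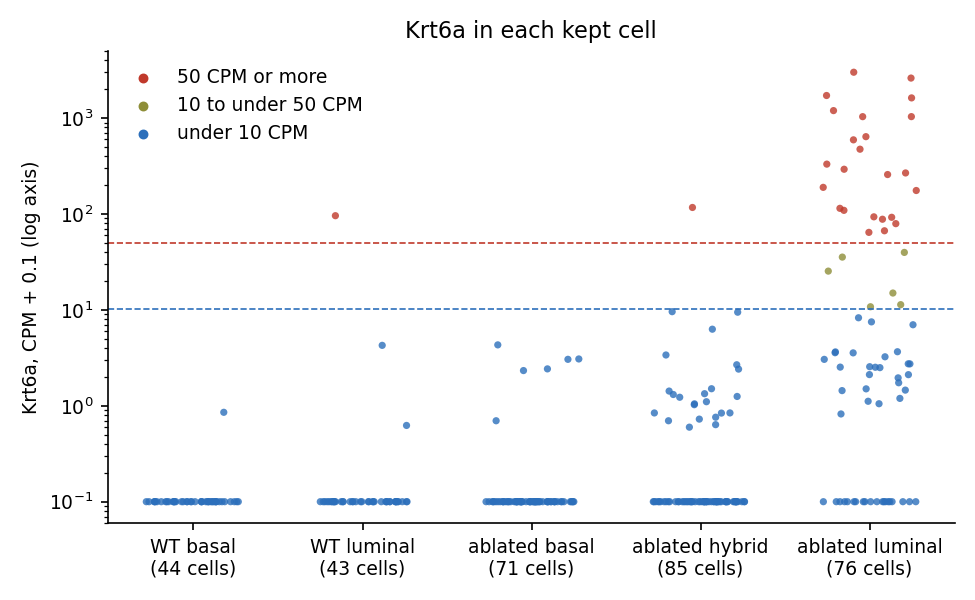
Krt6a in each of the 319 kept cells, as CPM plus 0.1 on a log axis, by sorted group; each point is 1 cell and dashed lines mark 10 and 50 CPM. The 24 cells above the upper line in the ablated luminal group range from 64.3 to 3011 CPM, against 1 such cell each in the WT luminal and hybrid groups.

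Depth, plate position and the number of genes with a read differed somewhat between the classes. Positive cells had a median of 1285488 gene reads (408350 to 2317553) and negative cells 989546 (150410 to 1694999). After thinning, they showed a median of 4732 and 4084 genes. The median mitochondrial share was 2.32% and 2.46%, with highest cells at 4.84% and 17.2%. Positive cells numbered 9 of 20 kept cells on plate line J, 9 of 23 on line K, 2 of 20 on line L, 2 of 9 on line I and 2 of 4 on line M. They numbered 14 of 38 in columns 1 to 12 and 10 of 38 in columns 13 to 24. The part of depth and plate position in the results was not tested. Values within lines J and K or within each set of columns are given for some genes whose direction or size changed there, not for all. Doublets were not called, and no kept cell had counts identical to another's.

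Genes whose mean over both classes was 5 CPM or more counted as measured, apart from Krt6a. Of these 10667 genes, 813 (7.62%) were 2-fold higher and 1192 (11.2%) were 2-fold lower in positive cells. The median log2 ratio over all of them was -0.04. These shares are the background for every count of list members. When genes were also required to be common in the higher class and to hold without their top cell, 220 were higher and 76 lower.

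The keratins and surface antigen that the gate's luminal label implies were present in both classes, although many cells also carried basal genes and stood below WT luminal cells in lineage position. Epcam, the surface antigen of the sort, was detected in all 24 and all 46 cells and stood at 2859.9 and 2808 CPM. Krt18 stood at 6954 CPM in positive and 6649.5 CPM in negative cells, a log2 ratio of 0.06, and Krt8 at 4269 and 4214 CPM. Per cell, Krt18 ran from 753 through a median of 6186 to 16937 CPM in positive cells and from 181 through 5546 to 16596 CPM in negative cells. Both ranges overlapped almost fully. Krt19 (log2 ratio 0.28) and Krt7 (0.75) also stayed under a 2-fold difference, so none of the 4 measured simple-epithelium keratins was called.

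The keratin partners of Krt6a differed among themselves. Krt16, the usual wound partner, stood at 478 CPM in positive and 166 CPM in negative cells (log2 ratio 1.47) and was detected in 10 of 24 and 8 of 46 cells. Its median cell was low in both classes, at 4.56 and 1.4 CPM, and its highest cell, at 4298 CPM, was a negative one. Krt17, the other partner, was 2081 and 1860.4 CPM, a log2 ratio of 0.16 that was -1.72 in columns 1 to 12 and 1.35 in columns 13 to 24. Krt15, a keratin of basal and stem-like epidermal cells, was higher in positive cells at 414 against 152 CPM, with 50 CPM or more in 13 of 24 and 9 of 46 cells. Krt4, a keratin of internal stratified epithelia, was called higher (204 against 17.7 CPM) from 3 positive cells, 1 of which held 60.9% of the class's reads. Its ratio was -0.22 in columns 13 to 24 and -0.86 without the cells above 2000000 reads. Of 9 measured wound and stratified keratins other than Krt6a, 3 were higher and 3 lower, with a median log2 ratio of 0.51. Krt13 was among the lower ones, and each class detected it in 1 cell. Of 27 genes of activated and cornifying keratinocytes in the table, 8 were measured, 10 had 0 reads in both classes, Ivl and Flg among them, and 1 (Dmkn, 191 against 76.7 CPM) was higher.

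The basal keratins were present in both classes. Krt14, the main keratin of the basal layer, stood at 5159.9 CPM in positive and 3609.5 CPM in negative cells, a log2 ratio of 0.51. It reached 50 CPM in 15 of 24 positive and 29 of 46 negative cells. Krt18 reached 50 CPM in every cell of both classes, so it was present beside Krt14 in any case. Krt14 ran from 5.64 through 548 to 27989 CPM in positive cells and from 4.45 through 319 to 37055 CPM in negative cells. WT luminal cells held 35.4 CPM. Krt5, its partner, reached 50 CPM in 8 positive and 9 negative cells, every one of which also had Krt14. Trp63, a transcription factor of basal cells, was higher in positive cells (86.1 against 32.5 CPM, log2 ratio 1.18), from 7 of 24 and 5 of 46 cells at 50 CPM.

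Contractile and matrix genes of the basal layer were mixed. Acta2, smooth-muscle actin, stood at 210.1 and 234 CPM (log2 ratio -0.15, but 1.23 within plate lines J and K), far under the 16591 CPM of ablated basal and 8119 CPM of hybrid cells. Cnn1, calponin, was lower at 13 against 60.9 CPM, from 2 and 4 cells that detected it, but reversed to 0.69 within plate lines J and K. Igfbp5, a secreted binding protein of insulin-like growth factors, was lower at 97.3 against 735 CPM. Sparc, a matrix protein, had a log2 ratio of -0.81. Of 19 measured basal myoepithelial genes, 2 were higher and 4 lower, with a median log2 ratio of -0.63 that became 0.22 within lines J and K.

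Position between both lineages had nearly the same median in both classes. It was computed as the mean log2(CPM + 10) of 297 genes higher in WT luminal cells minus that of 155 genes higher in WT basal cells. Positive cells ran from -1.23 through a median of 0.52 to 1.46, and negative cells from -1.16 through 0.53 to 1.62. The luminal part had medians of 5.65 in positive and 5.57 in negative cells, and the basal part 5.28 and 4.93. Medians of the position were 0.85 and 0.88 with genes 8-fold apart, and 3.84 and 3.52 with fixed gene lists. WT luminal cells had a median of 1.78, WT basal cells -2.89 and hybrid cells -0.95. Of positive cells 10 of 24, and of negative cells 16 of 46, lay above the lowest WT luminal cell, at 0.81. All others, 14 and 30, lay between that cell and the highest WT basal cell, at -1.65. Below 0, where the mean of the basal genes exceeded that of the luminal genes, were 7 positive and 10 negative cells. For these cells the score does not bear out the luminal label. It does not make them basal either, since 0 lies nearer the WT luminal median than the WT basal one. The lowest positive and negative cells stood at -1.53 and -1.39 with genes 8-fold apart, and at 0.10 and -0.47 with fixed gene lists. The 6 cells between the Krt6a limits had a median of 1.03.

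**Figure D2:**
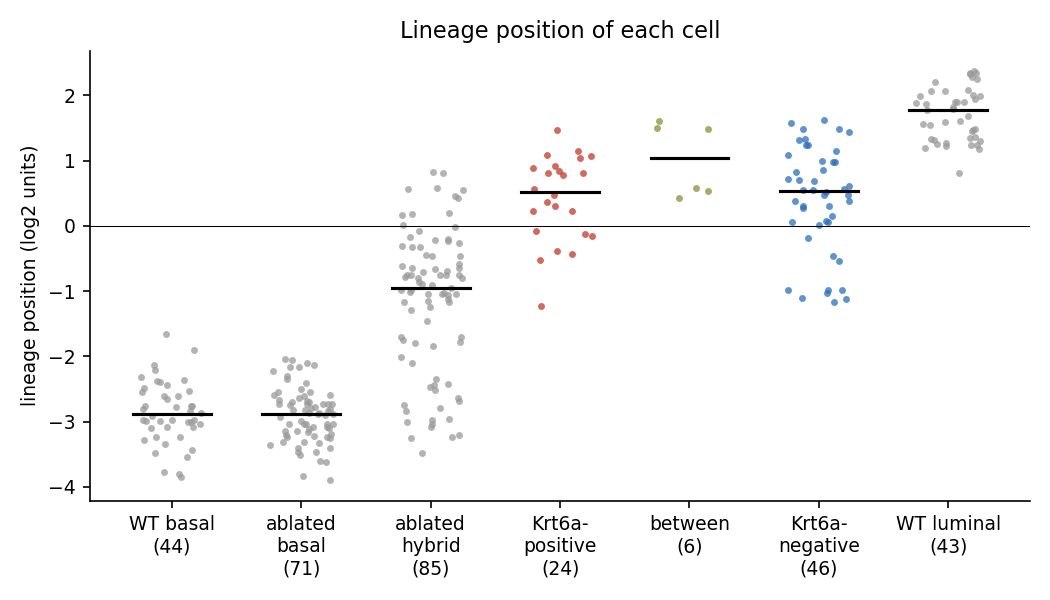
Lineage position of each kept cell in log2 units, by sorted group and, for ablated luminal cells, by Krt6a class; points are cells, lines are medians and numbers in brackets are cells. Positive and negative cells have medians of 0.52 and 0.53 and lie above every WT basal cell, and 10 and 16 of them lie above the lowest WT luminal cell.

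The largest ratio among genes common enough to be named was that of a ligand of the epidermal growth factor receptor (EGFR). Epgn, which encodes epigen, stood at 544 CPM in positive and 20.3 CPM in negative cells, a log2 ratio of 4.19 (ENSMUSG00000035020.11, chromosome 5, 91027464 to 91035215). It ran from 0 through a median of 23.6 to 7369 CPM in positive cells and from 0 through 1.28 to 379 CPM in negative cells. It reached 50 CPM in 11 of 24 positive, 3 of 46 negative and 0 of 6 intermediate cells. The classes overlapped, since many positive cells had none, and 7 positive cells exceeded every negative cell. Detection was 45.8% (25.6 to 67.2) against 6.52% (1.37 to 17.9) of cells. The top positive cell held 35.2% of the reads, and without the top cell of each class the ratio was 4.30. Epgn stood at 29.1 CPM in WT luminal and 59.9 CPM in hybrid cells.

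Further EGFR ligands were also measured. Areg, amphiregulin, the ligand that estrogen induces in the mammary gland, stood at 1188 and 540.3 CPM (log2 ratio 1.12). Its median cell had 665 CPM among positive and 9.25 CPM among negative cells, and 16 of 24 against 10 of 46 cells reached 50 CPM. The highest cells reached 5840.0 and 4649.8 CPM, so the ranges overlapped and the share of cells with Areg differed. Btc, betacellulin, was called higher (34.7 against 7.3 CPM) from 5 and 1 cells at 50 CPM, with 3 of the 6 intermediate cells above it too. Its ratio became -0.50 when positive cells needed 100 CPM of Krt6a. Nrg1, neuregulin, had a ratio of -0.87, with 2.07 in columns 1 to 12 and -2.43 in columns 13 to 24, so it had no settled direction. Of 14 measured members of the EGFR family and its ligands, the 3 ligands Epgn, Areg and Btc were higher and 0 lower, with a median log2 ratio of 0.22.

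Further genes among the 15 largest ratios came from several roles. Plaur, the receptor of urokinase, which is known from wound edges, stood at 422 against 74.7 CPM, with a median cell of 205 against 1.87 CPM and 50 CPM or more in 15 and 17 cells. Serpine2, an inhibitor of serine proteases, was 241 against 45.1 CPM, but its ratio was 0.38 in columns 13 to 24. Tns4, a tensin of focal adhesions, was 95.7 against 9.69 CPM. Mgp, matrix Gla protein, was 91.8 against 8.79 CPM with 70.1% of the positive reads in 1 cell. Cck, the peptide hormone cholecystokinin, was 295 against 26.2 CPM from 7 and 4 cells at 50 CPM, below the 602 CPM of WT luminal cells.

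Others of those 15 were enzymes and regulators. Pdk4, a kinase that limits entry of pyruvate into the citric acid cycle, stood at 272 against 32.1 CPM and reached 50 CPM in 10 and 4 cells. Rpusd4, a mitochondrial RNA-modifying enzyme, stood at 102 against 1.99 CPM and was detected in 9 of 24 positive cells and in 0 of 46 negative cells, which allows up to 6.52% of them. Nkiras2, an inhibitor of NF-kB signalling, was detected in 12 of 24 and 7 of 46 cells. Stom (stomatin, a membrane protein), Nav1 (a microtubule-binding protein) and Ppp1r14c (an inhibitor of protein phosphatase 1) had log2 ratios of 2.23, 2.27 and 2.15. Among the 15, the median positive cell lay above 10 CPM for Epgn, Pdk4, Plaur, Nkiras2 and Serpine2 and below it for the other genes, which a minority of positive cells carried.

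Genes of glutathione metabolism leaned to positive cells. Gpx2, a glutathione peroxidase of epithelia, stood at 436 against 30.6 CPM (log2 ratio 3.46). It reached 50 CPM in 9 of 24 and 5 of 46 cells, and most positive cells had nearly none, with a median of 2.15 CPM. Gsr, glutathione reductase, was higher in most cells of the class, at 712 against 265 CPM. It ran from 21 through 370.4 to 3950.1 CPM in positive and from 0 through 45.6 to 2312 CPM in negative cells. It was detected in 95.8% (78.9 to 99.9) of positive and 47.8% (32.9 to 63.1) of negative cells. Gclc, which makes the first step of glutathione synthesis, was 127 against 45.7 CPM, with a ratio of -0.63 in columns 13 to 24. Aldh3a1, an aldehyde dehydrogenase, was called higher from 2 positive cells. Of 14 measured glutathione and Nrf2 genes, 4 were higher and 1 lower, with a median log2 ratio of 0.56.

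The strongest list difference ran the other way, in genes of the luminal progenitor and secretory lineage. Of 22 measured members, 0 were higher and 16 lower in positive cells, with a median log2 ratio of -2.16, which ran from -2.32 to -1.23 over the alternatives. Among transcription factors and receptors of progenitors, Kit, the receptor of stem cell factor, stood at 52.9 against 263 CPM and reached 50 CPM in 4 of 24 and 20 of 46 cells. Elf5, the factor that drives alveolar fate, stood at 2.42 against 41.9 CPM, with 50 CPM in 0 of 24 and 8 of 46 cells. Aldh1a3, a retinaldehyde dehydrogenase of luminal progenitors, was 11.2 against 157 CPM, from 2 and 15 cells. Sox10, a factor found in progenitors and basal cells, was 14.5 against 109 CPM, detected in 4 and 13 cells. Each of these 4 was carried by a minority of negative cells and by a smaller share of positive cells.

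Milk and secreted proteins of the same list were among its lower members. Ltf, lactoferrin, stood at 333 against 4145 CPM (log2 ratio -3.60) and was detected in 3 of 24 and 23 of 46 cells. It ran from 2.83 through 7.37 to 9418 CPM in positive cells, where 1 cell held 91.8% of the reads, and from 4.03 through 48.6 to 49243 CPM in negative cells. Csn3, kappa-casein, was 112 against 1228 CPM and reached 50 CPM in 3 and 19 cells, with 86.7% of positive reads in 1 cell. Trf, transferrin, was 69.2 against 431 CPM, and Lcn2, lipocalin 2, was 521 against 1743 CPM. Lalba, alpha-lactalbumin, and Csn1s1, alpha-casein, reached 50 CPM in 0 and 1 positive cells and in 6 and 6 negative cells. WT luminal cells exceeded both classes for Csn3 (11416 CPM), Csn1s1 (8152 CPM) and Lcn2 (11349 CPM).

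Part of that signal depended on which negative cells were used. Within the negative class, the 26 cells with at least 1 Krt6a read held 82.1% of the class's Ltf reads, 99.2% of its Spp1 reads and 99.8% of its Csn2 reads. For Spp1 and Csn2, a few of these cells carried most of the reads. A single cell held 71.4% of the class's Csn2 reads and 36.8% of its Spp1 reads. The 3 highest Spp1 cells, all on plate line J, had 62796, 59332 and 24308 CPM. Csn2, beta-casein, stood at 3.29 against 521 CPM, from 3 negative cells at 50 CPM, and Spp1, osteopontin, at 1057 against 3065 CPM. Against the 20 negative cells with 0 Krt6a reads, the ratio of Csn2 became 0.14 and that of Spp1 3.85, and the list median moved from -2.16 to -1.23. Of those 20 cells, 14 came from plate line L, which held 17 of the 46 negative cells, so this setting and that line cannot be told apart. Negative control wells held a mean of 45.2 reads of Ltf, 114 of Csn3 and 142 of Spp1, so low values of these genes in a cell are at that background. With the control reads of each gene subtracted, the list median was -2.20.

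Genes of the hormone-sensing lineage leaned to positive cells. Of 20 measured members, 6 were higher and 0 lower, with a median log2 ratio of 0.59, which ran from 0.19 to 1.20 over the alternatives. Esr1, the estrogen receptor, stood at 161 against 56.6 CPM (log2 ratio 1.36) and reached 50 CPM in 10 of 24 and 9 of 46 cells. Pgr, the progesterone receptor, was not called at 95.2 against 59.7 CPM (log2 ratio 0.59), and was detected in 41.7% (22.1 to 63.4) of positive and 15.2% (6.34 to 28.9) of negative cells. Prlr, the prolactin receptor, was level (478 and 505 CPM). Tph1, which makes the first step of serotonin synthesis, was 380.3 against 116 CPM from 4 cells in each class. Calca and Fxyd2 were called higher from 2 positive cells each and reversed under alternatives. Of the 6 intermediate cells, 5 had Pgr, 5 had Areg and 6 had Prlr at 50 CPM.

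**Figure D3:**
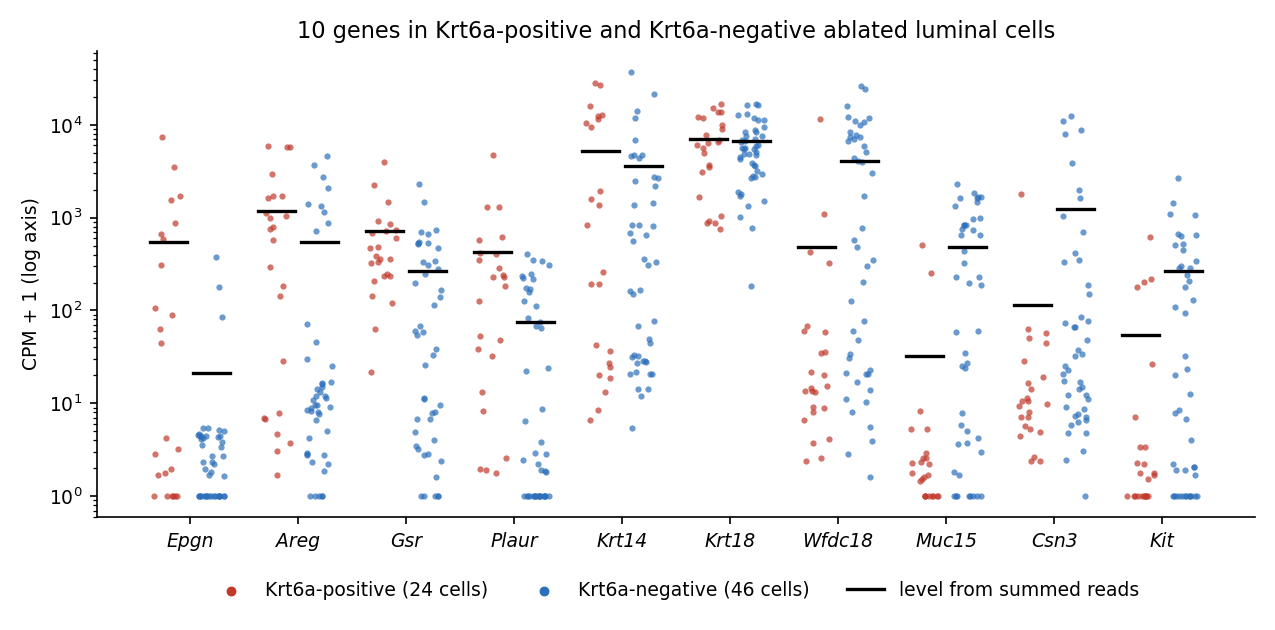
CPM plus 1 on a log axis for 10 genes in 24 positive (red) and 46 negative (blue) cells; points are cells and black bars the levels from summed reads. Krt18 overlaps almost fully, Epgn and Areg are carried by more of the positive cells, and Wfdc18, Muc15, Csn3 and Kit by more of the negative cells.

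Cell by cell, both lists were set against each other as the mean log2(CPM + 10) of the 21 hormone-sensing and the 28 progenitor and secretory genes. The hormone-sensing mean was the higher one in 17 of 24 positive, 17 of 46 negative, 5 of 6 intermediate and 12 of 43 WT luminal cells. The difference had a median of 1.04 (-1.55 to 3.54) in positive cells, -0.48 (-4.17 to 3.02) in negative cells and -2.69 in WT luminal cells. Of all 76 cells, 17 had a difference under 0.5 in size, so the side on which these cells fall rests on small differences. By single genes chosen after their values were seen, 19 of 24 positive and 15 of 46 negative cells had Esr1, Pgr or Areg at 50 CPM. Conversely, 7 of 24 positive and 35 of 46 negative cells had Kit, Aldh1a3, Elf5, Csn3 or Ltf at 50 CPM. Both kinds of gene met in 6 positive and 8 negative cells. Other members of both lists were left out of these counts. Among them, Prlr reached 50 CPM in 11 of 24 positive and 16 of 46 negative cells, and Spp1 in 9 and 13. Areg reached 50 CPM without Pgr in 9 positive and 5 negative cells.

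**Figure D4:**
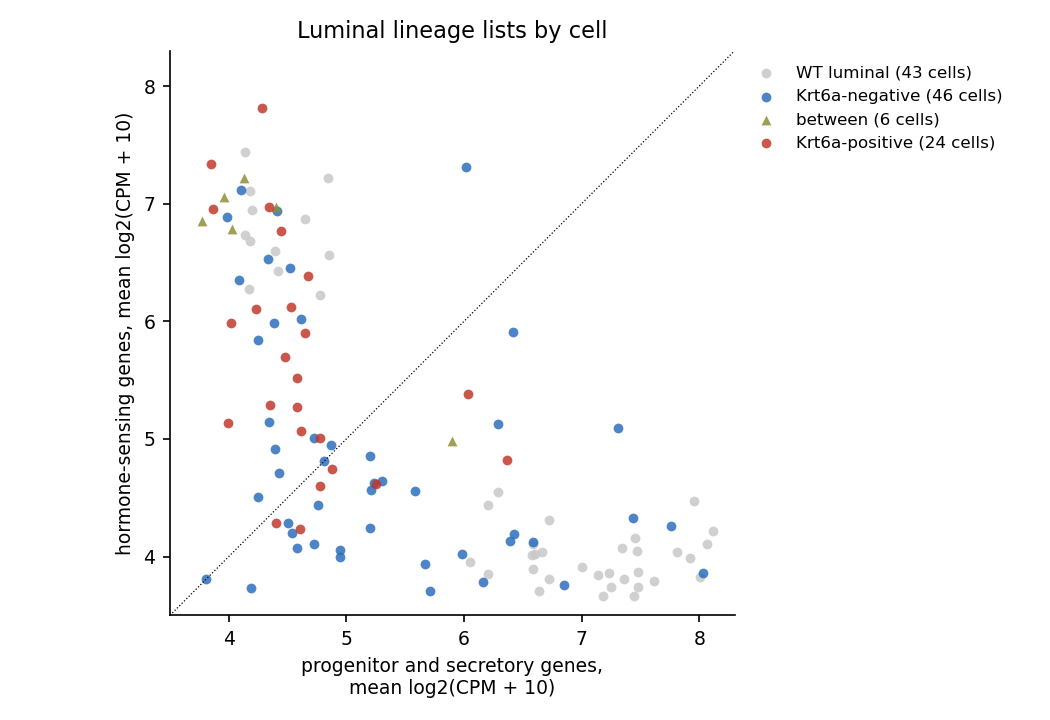
Mean log2(CPM + 10) of the 28 progenitor and secretory genes against that of the 21 hormone-sensing genes; each point is 1 cell, and the dotted line marks equal means. Positive cells (red) lie above the line in 17 of 24 cases, negative cells (blue) in 17 of 46, and WT luminal cells (grey) in 12 of 43.

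The other genes with the smallest ratios had several roles. Muc15, a membrane mucin, stood at 31.2 against 482 CPM (log2 ratio -3.58), with a median cell of 0.733 against 124 CPM and 50 CPM in 2 of 24 and 25 of 46 cells. Wfdc18, a small secreted protease-inhibitor-like protein, was 476 against 4027 CPM, from 7 and 30 cells. Cytip, a regulator of cytohesins, had the smallest ratio of the 15 chosen by size, -4.06, at 6.23 against 261 CPM. Aldoc, a glycolytic aldolase, was 79.2 against 518 CPM with 50 CPM in 7 and 29 cells. Aco1 (cytosolic aconitase), Asl (an enzyme of arginine synthesis), Cyp2d22 (a cytochrome P450) and Plb1 (a phospholipase) stood under 10 CPM in positive cells and at 98.5, 101, 127 and 105 CPM in negative cells. Asl and Cyp2d22 were detected in 0 of 24 positive cells, which allows up to 12.5% of them on the same limit of 3 cells. Lman2l, Plce1 and Nrep had log2 ratios of -3.30, -2.63 and -2.75.

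The genes with the largest ratios were then compared within each lean, a description chosen after the data were seen and not independent, since the same cells had chosen the genes. Among the 34 cells with the higher hormone-sensing mean, 17 in each class, all 15 largest genes kept their direction and 14 stayed past 2-fold. Epgn stood there at 468 against 36.8 CPM and Gpx2 at 358 against 15.4 CPM. In the other 7 positive and 29 negative cells, all 15 again kept their direction and 14 stayed past 2-fold, with Epgn at 755 against 9.86 CPM. Of the 11 smallest genes that belong to neither list, 10 kept their direction and 8 stayed past 2-fold among hormone-leaning cells, where Nrep turned to 0.13, and 11 stayed past 2-fold among the others. Muc15 was one that did not, at 1.3 against 6.52 CPM with 0 and 1 cells at 50 CPM. Gsr and Krt14 had log2 ratios of 0.72 and 0.07 among hormone-leaning cells and 1.49 and 1.29 in the other cells. Krt5 also kept its sign, at 0.58 and 1.22. Other basal genes had opposite signs in the hormone-leaning and the other cells, which their ratios over all cells do not show. These ratios were 3.70 and -0.58 for Krt17, 1.63 and -3.11 for Acta2, and -0.55 and 3.35 for Trp63. Whether these differ between the leans was not tested.

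Luminal surface genes differed little as a list, with a median log2 ratio of 0.06 over 16 measured members, 1 higher and 2 lower. Wfdc2, a secreted protease-inhibitor-like protein, was the higher one (1903 against 915 CPM, detected in 22 of 24 and 25 of 46 cells). The lower ones were Elf3 and Ehf, epithelial ETS factors, at 102 against 311 and 162 against 399 CPM. The progenitor-associated list held 0 higher and 7 lower of 16, with a median of -0.59, and 2 of the lower genes, Sox10 and Aldh1a3, also belong to the progenitor and secretory list. Sox9, a factor of luminal progenitors, and Lgr5, a Wnt-signal receptor, had ratios of -0.50 and -0.67, and that of Lgr5 was 1.64 in columns 1 to 12 and -2.86 in columns 13 to 24.

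Of 12 measured desmosome and cadherin genes 1 was higher and 0 lower, a share near the background, with a median log2 ratio of 0.28, and of 7 connexins and aquaporins 1 was higher and 0 lower, with a median of 0.39. Dsg3, a desmosomal cadherin of stratified epithelia and the higher gene of the former list, was detected in 4 of 24 positive and 0 of 46 negative cells and stood at 25.3 against 2.19 CPM. Emb, a membrane glycoprotein of basal cells, was not called (log2 ratio 0.46) but was detected in 18 of 24 positive and 17 of 46 negative cells, with intervals of 53.3% to 90.2% and 23.2% to 52.5%. Aqp3, a glycerol channel of epidermis, reached 50 CPM in 11 of 24 and 7 of 46 cells at levels of 189 and 176 CPM. Gja1, the connexin of the basal layer, Slpi, a secreted protease inhibitor, Itgb1 (CD29) and Cd24a stayed under 2-fold, with ratios of 0.39, 0.66, 0.17 and 0.64.

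Signalling lists held members of both directions. Of 16 BMP and TGF-beta genes, 2 were higher and 4 lower. The higher ones were Inhba, the activin A subunit (198 against 22.6 CPM, 7 and 5 cells at 50 CPM), and Tgfbr2, a TGF-beta receptor (121 against 38.2 CPM). Of 18 Wnt genes, 3 were higher and 3 lower, with the ligand Wnt7b at 62 against 11.6 CPM. Of 12 YAP and TAZ targets, 2 were higher and 2 lower. Ccn1, a matrix signalling protein, stood at 2134 against 619.9 CPM with a median cell of 527 against 72.4 CPM, and F3, tissue factor, at 756 against 319 CPM. Of 10 measured Notch genes, 0 were called.

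Stress-linked and interferon genes had more lower than higher members. Of 21 measured immediate early and dissociation genes, 1 was higher and 5 lower, with a median of -0.27 that was 0.01 in columns 1 to 12 and -0.89 in columns 13 to 24. Atf3 stood at 1204 against 3218 CPM, Fosb at 199 against 596 CPM and Fos at 970.4 against 2489 CPM. The median cell had 89.3 against 401 CPM of Fosb. These genes are known to be induced while tissue is dissociated. Fosl2 had a ratio of -1.22. Of 12 interferon-response genes, 0 were higher and 4 lower, with a median of -0.52. Irf1 and Oasl2 were among them at 70.1 against 180.1 and 14.2 against 59.5 CPM. Of 19 TNF and NF-kB genes, 2 were higher and 4 lower, with Nfkb1 at 77.6 against 240.1 CPM.

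Proliferation genes were rare in both classes. Mki67 reached 50 CPM in 1 of 24 and 3 of 46 cells, and Cdk1 in 2 and 3. Of 25 measured replication and mitosis genes, 4 were higher and 3 lower, with a median log2 ratio of -0.08, near the median of all genes. Ccnb2 was among the higher ones (60.3 against 15.7 CPM) and Tyms among the lower (16.5 against 81.9 CPM). Of 14 measured p53-response genes, 1 was higher and 1 lower. Of 19 hypoxia and glycolysis genes, 0 were higher and 4 lower, Pdk1, the kinase related to Pdk4, among them (13.6 against 69.8 CPM).

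**Figure D5:**
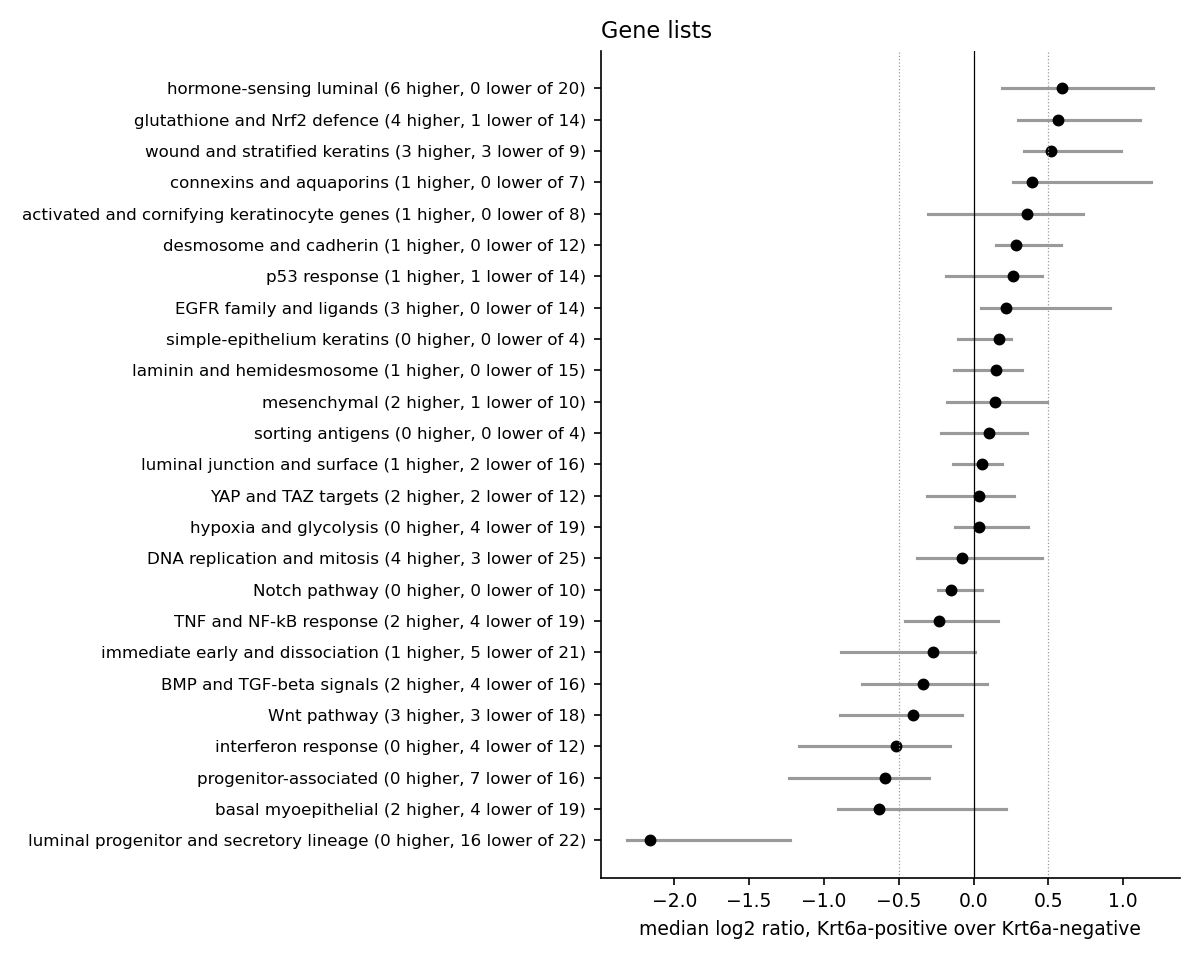
Median log2 ratio of positive over negative cells for 25 gene lists (black points), with the range over 25 alternatives as grey bars and called members in brackets; dotted lines mark 0.5 on either side. The progenitor and secretory list is the lowest at -2.16, and hormone-sensing, glutathione and wound keratin lists lie just above 0.5.

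Markers of adipocytes were absent. Those of immune cells, fibroblasts and pericytes were found in some cells of both classes, and those of endothelial and erythroid cells in a few cells. Ptprc (CD45) and all 6 adipocyte markers had 0 reads in both classes, 5 of 10 immune and 5 of 7 endothelial markers were at 0, and every median summed level of the immune, endothelial and erythroid lists was 0 CPM. Summed immune markers reached 50 CPM in 3 of 24 positive and 5 of 46 negative cells, at most 953 and 734 CPM. Summed endothelial markers did so in 0 of 24 and 3 of 46 cells, at most 25.3 and 445 CPM. For summed erythroid markers it was 2 of 24 and 0 of 46 cells, at most 198 and 44.2 CPM. Summed fibroblast markers reached 50 CPM in 6 of 24 positive and 6 of 46 negative cells, at most 2965 and 766 CPM. Summed pericyte markers had medians of 14.4 and 7.12 CPM and reached 50 CPM in 5 of 24 and 11 of 46 cells. Dcn, a fibroblast proteoglycan, was called higher at 214 against 11.8 CPM with 87.5% of the positive reads in 1 cell. The part of these cells in the class differences was not tested.

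Among the 24 positive cells, the amount of Krt6a was only loosely tied to other genes. Spearman's rank correlation with Krt6a CPM is given without a test and over cells that share 1 plate. It ran from -0.45 to 0.58 over 102 of the genes reported here, with a median of 0.05. High values were those of Krt17 (0.58), Aldh3a1 (0.52), Trp63 (0.48), Krt5 (0.47) and Krt14 (0.46). Epgn had 0.32, and the lowest were Btc (-0.45) and Kit (-0.43). The same measure for the cell's gene reads was -0.18.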

How the data were processed

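Single sorted mammary epithelial cells were profiled by Smart-seq2 on one 384-well plate. The authors deposited 1 table of raw counts of reads per gene with no normalization, per the file headers and the whole-number values. Tools listed in the submitters' processing notes are STAR 2.5.2b, HTSeq 0.6.0, cutadapt 1.13 and Seurat, with the build GRCm38. What each did, and which annotation was counted, the sources used here do not say. Such libraries do not mark strand, so reads of genes that overlap on opposite strands cannot be told apart.

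Cells were kept at 100000 or more gene reads, 1000 or more genes and at most 20% mitochondrial reads, which left out 15 of 91 ablated luminal wells. Gene IDs were matched to GENCODE M21 (49326 of 49585), which also gave coordinates and coding sequences. The 11 spike-in reads stayed out of totals. Counts were summed per class and scaled to CPM. Measured genes had a mean of 5 CPM or more. Named genes were the 15 largest and 15 smallest ratios with an official symbol, at least 50 CPM and detection in 25% of cells of the higher class, a gap of 20 percentage points, and a 2-fold ratio of the same sign without the top cell of each class. Up to 4 members of each of 31 lists with the largest ratios, and a fixed set of genes, were added to them. Some of these genes are not reported here. A list was said to lean at a median of 0.5 or more in size. Genes of the lineage position were 4-fold apart between WT luminal and WT basal cells. The members and lists were chosen with earlier results of these data known. The summing was tested on simulated data. Python 3.11.15, numpy 2.4.6, pandas 2.3.3, scipy 1.17.1 and matplotlib 3.10.9 were used, and R 4.3.3 with edgeR 4.0.16 served for TMM factors only. Alternatives changed the cell filters, Krt6a limits, weighting, scaling, added CPM, gene filter, depth, background reads and plate position. The precision follows depth, from 150410 to 2317553 gene reads per cell of both classes, and intervals and limits for 0 cells cover counting error only, since several reads can stem from 1 molecule.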

Additional observations from a re-analysis of the deposited data

Results flagged for a closer look

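At 50 CPM or more, Krt6a also appeared in 3 libraries of cells outside the comparison. The ablated luminal library of many cells held 55.8 CPM of Krt6a (196 reads), and the other 4 many-cell libraries held 0 reads. The 1 WT luminal cell above the limit had 95.96 CPM of Krt6a, with Esr1 at 735 CPM, Prlr at 3855 CPM and Krt14 at 4.51 CPM. The 1 hybrid cell above the limit had 116.9 CPM of Krt6a, with Krt14 at 1278 CPM and Acta2 at 9040.1 CPM. These 2 cells thus differed in their luminal and basal genes, and no test was possible with 1 cell in each group.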

How the results depend on the processing

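Results were recomputed under 25 alternatives, 2 of them chosen after seeing the data (plate lines J and K, and cells of at least 400000 gene reads). All 30 genes named for the size of their ratio kept their direction in every alternative, and 27 kept a 2-fold difference, the exceptions being Mgp, Serpine2 and Trf. These 30 had been chosen from the same cells by a rule that required a 2-fold ratio without the top cells, 1 of the alternatives. The alternatives draw largely on the same cells, so the kept directions were in part fixed by the choice and are not independent support. Of 77 called genes among the 103 reported here, 66 kept their direction and 39 also a 2-fold difference. The 152 named genes include others that were not recomputed. The positive share moved by less than its interval. The count of higher genes moved from 813 to 1524 against negative cells with 0 Krt6a reads, 1446 with 1 CPM added, 493 with a mean of at least 20 CPM, 1538 in columns 1 to 12, 1459 in columns 13 to 24 and 1394 in lines J and K. The count of lower genes moved from 1192 to 1962 with 1 CPM added, 658 with a mean of at least 20 CPM and 2398 in columns 13 to 24. The plate alternatives use fewer cells and the 20 CPM filter fewer genes. The cause of the other moves was not tested.

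Reversed log2 ratios are given for the called genes reported here. That of Btc was -0.50 with positive cells at 100 CPM and -0.017 with every cell under 50 CPM as negative. Those of Csn2 and Spp1 became 0.14 and 3.85 against negative cells with 0 Krt6a reads. Without the top cells, Krt13 became 0.038 and Fxyd2 -0.53. In columns 1 to 12, Dmkn became -0.56, Calca -0.46 and Aldh3a1 -0.013. In columns 13 to 24, Krt4 became -0.22, Krt13 0.058, Fxyd2 -0.11 and Gclc -0.63. Without cells above 2000000 reads, Krt4 became -0.86 and Fxyd2 -0.79. In lines J and K, the basal myoepithelial median became 0.22 and Cnn1 0.69. Genes that were not called changed sign too, among them Krt17, Nrg1, Lgr5, Acta2, Aqp3, Gja1 and Pgr. Some called genes kept their sign but moved in size. Over the alternatives F3 ran from 0.24 to 4.33, Tph1 from 0.25 to 5.37 and Trp63 from 0.28 to 1.87. Krt15 ran from 0.46 to 2.24 and Ccn1 from 0.50 to 2.24. The cause was not tested. No paired analysis was possible because cells carry only numbers of their own and each group is 1 sample. With 24 and 46 cells, a gene in 0 cells may still be carried by up to 12.5% and 6.52% of cells, taking 0 to allow 3 cells.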
